A study of Rattus norvegicus with 12 samples.

Results

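The genes described here are 43 genes of the NRF2, glutathione and thioredoxin antioxidant systems, listed by name and read on rat expression arrays in F111 cells kept in suspension or left attached. A gene was taken where a probe set of the array carried its symbol alone in the platform annotation, and its brightest probe set stood for it. In this way 42 of the 43 genes were measured, out of 14217 genes on the arrays, and the remaining one, Prdx1, had no probe set with a single symbol.

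F111 is a rat fibroblast line with an aneuploid karyotype. F111 NA16 cells were held in suspension on an agarose-coated surface for 16 h, and the name refers to the cells that had survived that time, whereas F111 A16 cells were grown attached to plastic for 16 h. Both were kept in Dulbecco's modified Eagle medium with fetal calf serum, and no other treatment separated them. The paper reports that most suspended cells had lost viability by the time of collection. It describes the surviving ones as rich in apoptotic proteins and as showing DNA fragmentation. Its methods name no step that parted live from dying cells before RNA was extracted. The part of dying cells in the results was not tested. Each state was read on 3 arrays, from biological replicates 1 and 2 and a technical replicate 2, which was averaged with biological replicate 1 as its numbering in the labels points to, giving n = 2 in each state. No source says whether the biological repeats were separate cultures, and the p-values therefore cover only the variation among these arrays, some of it possibly technical.

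NRF2, the product of Nfe2l2, is a transcription factor that the adaptor KEAP1 hands over to a ubiquitin ligase for destruction, and oxidants or electrophiles that modify KEAP1 let it accumulate. With a small MAF protein it then binds antioxidant response elements in genes for glutathione synthesis, thioredoxin reduction, NADPH supply, heme breakdown and conjugation of electrophiles. Glutathione and thioredoxin are parallel thiol systems, both kept reduced by NADPH, and they feed the glutathione peroxidases and the peroxiredoxins that remove peroxides. In fibroblasts these systems respond to oxidants, heme, metals and the supply of nutrients.

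The promoters of the genes were read for the core of the antioxidant response element, TGACNNNGC, which is read along the gene's strand as GCNNNGTCA where it lies on the opposite one, in windows reaching from 250 bases before to 50 bases after each start site in RefSeq, build GRCr8. Windows were given for 36 of the 42 measured genes, with none for Hmox1, Gsr, Txnip, Prdx6, Sod3 and Gstt1. The core occurred in 12.1% of all 33469 windows and in 8 of the 40 windows of these genes, which is 20% of them. Of the 8 genes concerned, Gclm, Me1, Sod2 and Txnrd1 were lower in NA16 cells and Nfe2l2 was higher. Gstp1, Hmox2 and Prdx5 did not pass at an adjusted p of 0.05. Of the 42 measured genes 11 were lower and 10 higher, and of all genes on the arrays 16.9% were lower and 21.9% higher. Whether the core goes with the direction of change was not tested. Stretches of 100 bases are given here for 5 of these 8 genes, the 4 that were lower (Txnrd1 in 1 of its 2 windows) and Gstp1, whose match has the same letters as that of Me1. Those of Nfe2l2, at 39 to 47 bases past the start site, Hmox2 (-95 to -87) and Prdx5 (-1 to 8) are given by position. The stretches read 5′ to 3′ along the gene's strand, with the bases that match the core in capitals.
Gclm: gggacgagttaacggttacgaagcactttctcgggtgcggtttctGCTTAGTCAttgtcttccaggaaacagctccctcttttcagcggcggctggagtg
Txnrd1: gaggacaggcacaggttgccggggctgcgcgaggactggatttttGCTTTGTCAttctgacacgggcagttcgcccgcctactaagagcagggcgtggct
Me1: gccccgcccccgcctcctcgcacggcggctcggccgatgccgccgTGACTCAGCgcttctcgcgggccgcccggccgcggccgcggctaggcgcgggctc
Sod2: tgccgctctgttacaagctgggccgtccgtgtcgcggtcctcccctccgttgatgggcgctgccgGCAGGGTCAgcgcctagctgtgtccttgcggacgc
Gstp1: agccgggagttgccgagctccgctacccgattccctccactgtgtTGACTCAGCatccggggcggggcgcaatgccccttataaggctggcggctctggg
These are chr2:213031918-213032017 on the plus strand for Gclm, and on the minus strand chr7:22755928-22756027 for Txnrd1, chr8:96540357-96540456 for Me1, chr1:50050169-50050268 for Sod2 and chr1:210769712-210769811 for Gstp1. Counted from the start site, the matches lie at -172 to -164 in Gclm, -78 to -70 in Txnrd1, -167 to -159 in Me1, -35 to -27 in Sod2 and -61 to -53 in Gstp1. In Me1 and Gstp1 the match also holds the AP-1 site TGACTCA, which was searched on both strands as well and occurred in 4.63% of all windows. A further 3 genes, Glrx, Gsto1 and Srxn1, held an AP-1 site without the core, so that 5 of the 40 windows had one. A match of letters says nothing of whether a factor was bound, and the elements of many NRF2 targets lie outside such short windows.

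Technical replicate 2 was not closest to the same biological replicate in both states. Over all genes the standard deviation of its log2 difference in NA16 cells was 0.286 against biological replicate 1 and 0.167 against biological replicate 2, while in A16 cells it was 0.167 against biological replicate 1 and 0.265 against biological replicate 2. Over the 42 antioxidant genes the same values, against biological replicates 1 and 2 in turn, were 0.243 and 0.104 in NA16 cells and 0.134 and 0.258 in A16 cells. Which biological replicate the technical one repeats is thus not settled by the values, and the counts are also given with it averaged with its closest array in each state. Median intensity lay between 156.5 and 157.9 on the NA16 arrays and between 152.5 and 154.9 on the A16 arrays. Of 12 fibroblast markers 5 were higher and none lower, or 41.7% called, near the 38.9% of all genes. The 5 were Pdgfrb (1.40 on the log2 scale), Lum (1.15), Pdgfra (0.78), Dcn (0.58) and Thy1 (0.47). The other 7 went in both directions without passing, with Col5a1 at -0.57 and Col3a1 at 0.50. Summed intensity of the 12 was 99581 to 132488 on the NA16 arrays and 119203 to 137705 on the A16 arrays. The collagen gene Col1a1 was bright (log2 intensity 14.28 in NA16 and 14.60 in A16 cells, adjusted p 0.386), whereas the proteoglycan gene Dcn was dim (5.81 in NA16 and 5.23 in A16 cells, adjusted p 0.0450). Summed intensity of 10 macrophage markers was 2146 to 2416 on the NA16 arrays and 2067 to 2350 on the A16 arrays. Of these, Cd68 (1.46), Lyz2 (1.15) and Cd74 (0.49) were higher in NA16 cells and none lower, or 30% called, against 38.9% of all genes. The defining leukocyte gene Ptprc stayed dim (5.68 in NA16 and 5.82 in A16 cells). Cd14, the brightest of the 10, differed by -0.35 (10.17 in NA16 and 10.52 in A16 cells) and did not pass. Of 10 epithelial markers 40% were called, near the 38.9% of all genes, with 2 higher, Krt8 (1.26) and Epcam (0.54), and 2 lower, Krt7 (-2.06) and Sfn (-0.42). Their summed intensity was lower on every NA16 array (3764 to 4248) than on the A16 arrays (4866 to 5292). Krt7 was the brightest of them in A16 cells (11.76, against 9.70 in NA16 cells) and weighed most in the A16 sums. Of 6 endothelial markers 33.3% were called, against 38.9% of all genes, with 1 higher, Pecam1 (0.48), and 1 lower, Egfl7 (-0.37). Their sum was likewise lower on every NA16 array (763 to 821) than on the A16 arrays (849 to 939). Egfl7 was the brightest of them (8.85 in NA16 and 9.22 in A16 cells) and weighed most in these sums. The part of these cell types in the results was not tested.

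**Figure D1:**
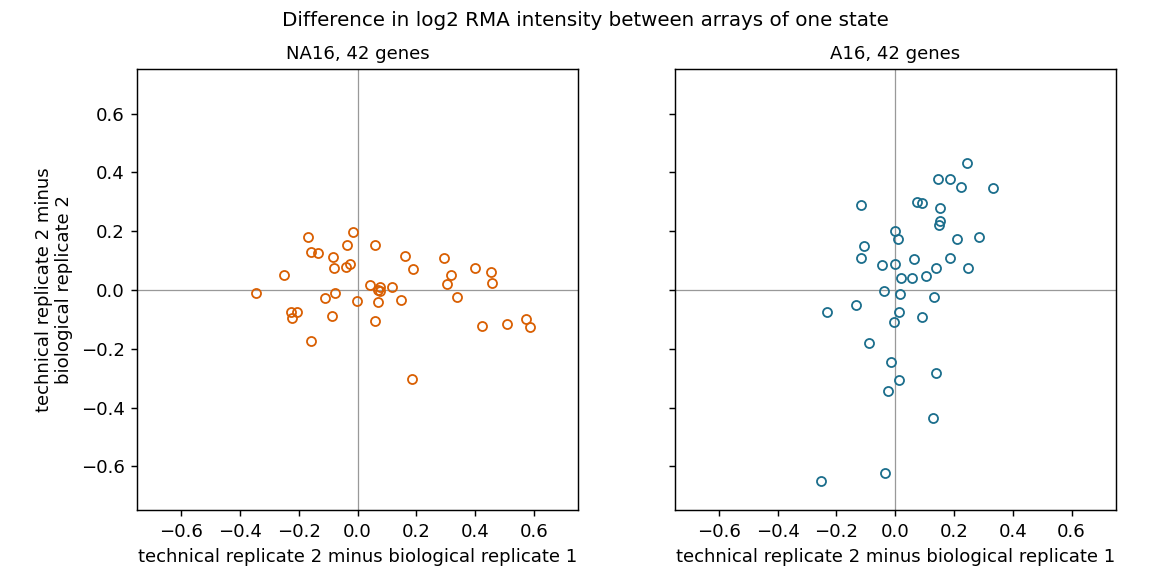
Each point is 1 of the 42 antioxidant genes, placed by the log2 intensity of technical replicate 2 minus that of biological replicate 1 (x axis) and minus that of biological replicate 2 (y axis), for NA16 (left) and A16 (right). In NA16 the points lie flat along the x axis (SD 0.104 on the y axis and 0.243 on the x axis), and in A16 they stand upright (0.258 on the y axis and 0.134 on the x axis).

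Of the 42 antioxidant genes, 10 were higher and 11 lower in F111 NA16 than in F111 A16 cells at an adjusted p below 0.05, by limma with Benjamini-Hochberg adjustment over all genes. The higher ones included the heme oxygenase Hmox1, 5 glutathione transferases, the thioredoxin inhibitor Txnip and catalase. The lower ones included genes of glutathione synthesis, thioredoxins, glutathione peroxidases and the malic enzyme Me1, which makes NADPH. Over all 14217 genes 38.9% passed, 21.9% higher and 16.9% lower, while of the antioxidant genes 50% passed. A change of at least 2-fold was found for 8 higher genes and 1 lower gene, against 7.74% and 6.12% of all genes. The NA16 arrays lay entirely above or entirely below the A16 arrays for 28 of the 42, or 66.7%, against 51.7% of all genes. The median change on the log2 scale was 0.03 and the median size of a change 0.42, against 0.01 and 0.27 over all genes. Since these are RNA levels of whole cultures, fewer cells with a transcript and less of it per cell cannot be told apart. With technical replicate 2 averaged with its closest array the counts were 10 higher and 10 lower. The number of lower genes depended on single replicates, and was 6 without NA16 replicate 2 and 7 without NA16 replicate 1.

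**Figure D2:**
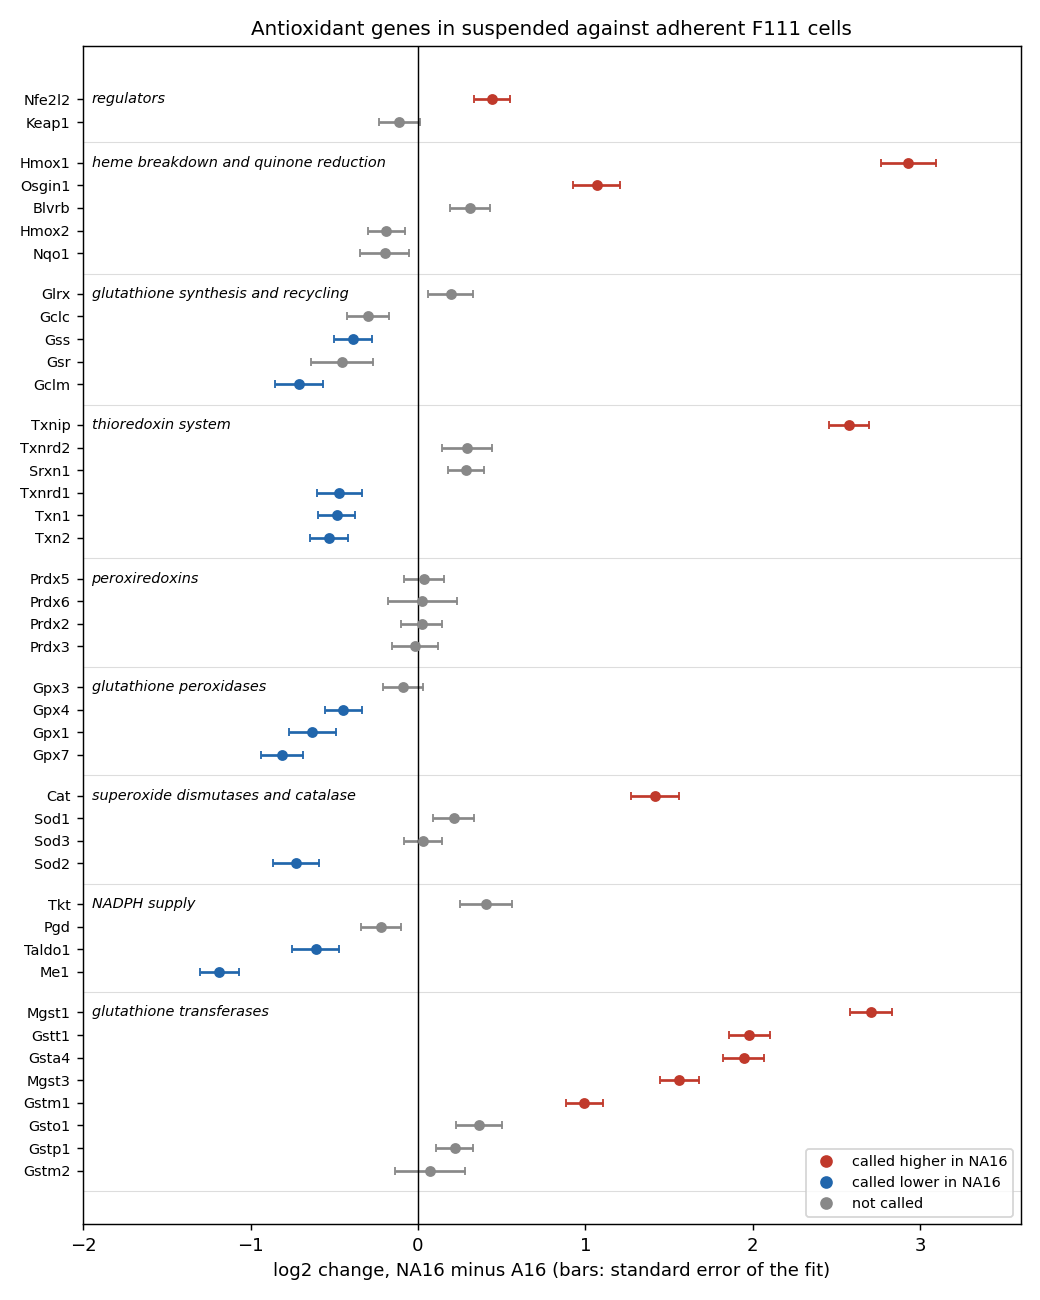
Change of the 42 genes on the log2 scale, NA16 minus A16, grouped by role and ordered by change within each group; points are the fitted change and bars its standard error, red for genes called higher, blue for genes called lower, grey for the rest. Hmox1 (2.93), Mgst1 (2.71) and Txnip (2.57) lie farthest to the right and Me1 (-1.19) farthest to the left.

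Of the regulators, Nfe2l2 was slightly higher and Keap1, its inhibitor, did not pass the test. Array values are log2 RMA intensities in the order biological replicate 1, biological replicate 2, technical replicate 2, means carry the SD over n = 2 replicates, and changes are log2 differences, NA16 minus A16, with the SE of the fit. Nfe2l2 read 12.86, 12.89 and 12.90 in NA16 cells, against 12.39, 12.44 and 12.49 in A16 cells, and the groups did not overlap. Its means were 12.88 ± 0.0035 in NA16 cells and 12.44 ± 0.0034 in A16 cells (SD, n = 2), a difference of 0.44 ± 0.11 (SE) with an adjusted p of 0.0165. The call of Nfe2l2 was lost when any replicate was left out, with an adjusted p of 0.0589 without A16 replicate 1, 0.0586 without A16 replicate 2, 0.117 without NA16 replicate 1 and 0.122 without NA16 replicate 2, although the change stayed between 0.44 and 0.45. Keap1 read 8.997, 9.39 and 9.45 in NA16 cells, against 9.31, 9.46 and 9.44 in A16 cells. Here the ranges overlapped, only biological replicate 1 of NA16 lying clearly lower, and the difference was -0.11 ± 0.12 (adjusted p 0.561). A dimmer probe set of Keap1 differed by -0.53 (adjusted p 0.350 over all probe sets), which brought the mean of both to -0.32.

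Hmox1, the inducible heme oxygenase that opens the heme ring to biliverdin, iron and carbon monoxide, showed the largest change of all 42 genes. Of 5 genes of heme breakdown and quinone reduction 2 were higher and none lower, or 40% called, near the 38.9% of all genes. Hmox1 read 12.77, 13.26 and 12.96 in NA16 cells, against 10.02, 10.26 and 10.01 in A16 cells. Its means were 13.07 ± 0.28 in NA16 cells and 10.14 ± 0.17 in A16 cells (SD, n = 2), a 7.62-fold difference (log2 2.93 ± 0.17, adjusted p 6.86e-05). Every NA16 array lay far above every A16 array, and biological replicate 2 was the highest in both states. Hmox2, the constitutive heme oxygenase, differed by only -0.19 (adjusted p 0.25), and Blvrb, a reductase of biliverdin and flavins, by 0.31 (0.0857). Osgin1, a growth inhibitor known to be induced by oxidative stress, rose by 1.07 on the log2 scale. It read 8.72, 9.27 and 9.15 in NA16 cells, against 8.04, 8.02 and 8.06 in A16 cells (means 9.10 ± 0.24 in NA16 and 8.03 ± 0.021 in A16 cells, SE of the change 0.14, adjusted p 0.0012). The A16 arrays were almost equal for Osgin1, and the lowest NA16 array, biological replicate 1, was still above them. Nqo1, the quinone reductase often taken as the standard readout of NRF2, read 11.52, 11.41 and 11.50 in NA16 cells, against 11.89, 11.48 and 11.77 in A16 cells, and the difference of -0.20 did not pass (adjusted p 0.363).

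Of 5 genes of glutathione synthesis and recycling, 2 were lower and none higher, or 40% called, near the 38.9% of all genes. Gclm, the modifier subunit of glutamate-cysteine ligase, read 9.47, 9.66 and 9.62 in NA16 cells, against 10.16, 10.48 and 10.14 in A16 cells. It fell 1.64-fold, with means of 9.60 ± 0.077 in NA16 and 10.31 ± 0.23 in A16 cells (log2 change -0.71 ± 0.14, adjusted p 0.00742), and the arrays of the states did not overlap. Gss, glutathione synthetase, which adds the glycine, fell by 0.39 on the log2 scale (adjusted p 0.0335), but its adjusted p was 0.104 without A16 replicate 1, 0.0965 without A16 replicate 2, 0.311 without NA16 replicate 1 and 0.105 without NA16 replicate 2, and 0.0574 with technical replicate 2 averaged with its closest array. For Gclc, the catalytic subunit of the ligase, the difference was -0.30 (adjusted p 0.107), while a dimmer probe set of the gene differed by -0.69, with an adjusted p of 0.0291 over all probe sets, and the mean of both by -0.49 (adjusted p 0.0153). Without A16 replicate 1 the difference of Gclc was -0.20. Gsr, which reduces oxidised glutathione, differed by -0.45 (adjusted p 0.105), and passed without A16 replicate 1 (-0.72, adjusted p 0.021) and without NA16 replicate 1 (-0.56, adjusted p 0.0376). Without A16 replicate 2 the difference of Gsr was -0.19 (adjusted p 0.435). Glrx, glutaredoxin, read 9.91, 9.56 and 9.74 in NA16 cells, against 9.58, 9.45 and 9.53 in A16 cells on its brighter probe set, a difference of 0.20 (adjusted p 0.327), and its other probe set differed by -0.12. The groups overlapped for Glrx, and its probe sets gave no common direction.

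In the thioredoxin system 1 of 6 genes was higher and 3 were lower, or 66.7% called, against 38.9% of all genes. The thioredoxins and a reductase were lower and the thioredoxin inhibitor was higher. Txnip, which binds thioredoxin, holds back glucose uptake and is itself induced by glucose, read 13.77, 13.88 and 13.84 in NA16 cells, against 11.41, 11.18 and 11.29 in A16 cells. The means were 13.84 ± 0.053 in NA16 and 11.27 ± 0.12 in A16 cells, a 5.96-fold difference (log2 2.57 ± 0.12, adjusted p 4.43e-05), and the arrays of each state lay close together. Txn1, the cytosolic thioredoxin, fell by 0.49 on the log2 scale (adjusted p 0.0125) and Txn2, the mitochondrial one, by 0.53 (adjusted p 0.00969). Txnrd1, the cytosolic thioredoxin reductase, fell by 0.47 (adjusted p 0.0292), and its other probe set differed by -0.84. These 3 calls were not stable to the loss of a replicate. Without A16 replicate 1 the adjusted p was 0.0590 for Txn1 and 0.130 for Txnrd1, without NA16 replicate 1 it was 0.0940 for Txn1, 0.0981 for Txn2 and 0.109 for Txnrd1, and without NA16 replicate 2 it was 0.0663 for Txn1 and 0.0789 for Txnrd1. Txnrd2, the mitochondrial reductase, differed by 0.29 (adjusted p 0.185), and by 0.11 without NA16 replicate 2 and 0.48 without NA16 replicate 1. Srxn1, the sulfiredoxin that repairs overoxidised peroxiredoxins, read 10.31, 10.39 and 10.39 in NA16 cells, against 10.02, 10.08 and 10.15 in A16 cells on its brightest probe set. That difference of 0.29 missed the threshold (adjusted p 0.0806) although its arrays did not overlap, and the gene's other probe sets differed by -0.14 and -0.24, so the direction of Srxn1 was not settled.

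The peroxiredoxins were the flattest group. Prdx2 of the cytosol, Prdx3 of mitochondria, Prdx5 and the glutathione-dependent Prdx6 differed by 0.02, -0.02, 0.04 and 0.03 on the log2 scale, with adjusted p between 0.868 and 0.950, and in none of the 4 were the arrays of the states apart. The standard errors of the changes were 0.12 for Prdx2 and 0.20 for Prdx6, several times the changes themselves, and the sign of each of these changes turned under some processing alternatives.

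Of the glutathione peroxidases, which use glutathione to reduce peroxides, 3 of 4 were lower in NA16 cells, or 75% called. Over all genes 38.9% were called and 16.9% were lower. Gpx7, an enzyme of the endoplasmic reticulum, read 11.07, 10.92 and 10.84 in NA16 cells, against 11.76, 11.63 and 11.98 in A16 cells (means 10.94 ± 0.028 in NA16 and 11.75 ± 0.17 in A16 cells, log2 change -0.81 ± 0.13, adjusted p 0.00243). Gpx1, the major cytosolic peroxidase, read 12.98, 12.85 and 12.78 in NA16 cells, against 13.53, 13.34 and 13.77 in A16 cells (means 12.86 ± 0.020 in NA16 and 13.50 ± 0.22 in A16 cells, log2 change -0.63 ± 0.14, adjusted p 0.0102). In both genes the NA16 arrays were closer together than the A16 arrays, of which technical replicate 2 was the highest. Gpx4, which reduces lipid peroxides and guards against ferroptosis, fell by 0.45 (adjusted p 0.0165), and did not pass without A16 replicate 2 (adjusted p 0.0685), NA16 replicate 1 (0.131) or NA16 replicate 2 (0.101). Its dimmer probe set differed by -0.08, which brought the mean of both to -0.27 (adjusted p 0.0860). Gpx3, a secreted enzyme with dim signals here, differed by -0.09 (adjusted p 0.651).

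Catalase and the mitochondrial superoxide dismutase moved in opposite directions. Cat, which breaks down hydrogen peroxide in peroxisomes, read 12.46, 12.56 and 12.58 in NA16 cells, against 10.88, 11.30 and 11.02 in A16 cells. It rose 2.67-fold (means 12.54 ± 0.033 in NA16 and 11.12 ± 0.25 in A16 cells, log2 change 1.42 ± 0.15, adjusted p 4.36e-04). Sod2, which turns superoxide into hydrogen peroxide in mitochondria, read 10.77, 10.77 and 10.68 in NA16 cells, against 11.31, 11.63 and 11.33 in A16 cells, and fell 1.66-fold (means 10.75 ± 0.031 in NA16 and 11.48 ± 0.22 in A16 cells, log2 change -0.73 ± 0.14, adjusted p 0.00555). Both were apart on all arrays, with biological replicate 2 the highest of the A16 arrays in each. Sod1, the cytosolic copper-zinc enzyme, differed by 0.21 (adjusted p 0.234), and Sod3, the secreted one, by 0.03 (adjusted p 0.893).

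Among 4 genes listed for NADPH supply 2 were lower and none higher, or 50% called, against 38.9% of all genes. Of the 4, Me1 and Pgd encode enzymes that make NADPH themselves, while Taldo1 and Tkt do not. Me1 was the only one of the 42 to fall by at least 2-fold. Me1, the cytosolic malic enzyme, read 9.87, 9.99 and 10.06 in NA16 cells, against 11.17, 11.08 and 11.32 in A16 cells, a 2.28-fold difference (means 9.98 ± 0.017 in NA16 and 11.16 ± 0.11 in A16 cells, log2 change -1.19 ± 0.12, adjusted p 3.74e-04). The highest NA16 array lay well under the lowest A16 array, and a second probe set of Me1 differed by -0.85 in the same direction. Taldo1, transaldolase of the pentose phosphate pathway, read 11.97, 11.72 and 11.84 in NA16 cells, against 12.52, 12.29 and 12.59 in A16 cells (means 11.81 ± 0.14 in NA16 and 12.42 ± 0.18 in A16 cells, log2 change -0.61 ± 0.14, adjusted p 0.0123). Its arrays did not overlap, but the adjusted p of Taldo1 was 0.0655 without A16 replicate 1 and 0.0596 without NA16 replicate 2. Pgd, which makes NADPH in that pathway, differed by -0.22 (adjusted p 0.220) and Tkt, transketolase, by 0.41 (adjusted p 0.0794), and Tkt passed without NA16 replicate 1 (0.60, adjusted p 0.0232) but differed by 0.22 without NA16 replicate 2 (adjusted p 0.59).

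The glutathione transferases, which join glutathione to electrophiles, were the group with the highest median change, 1.28 on the log2 scale. Of these 8 genes 5 were higher and none lower, or 62.5% called. Over all genes 38.9% were called and 21.9% were higher. Mgst1, a microsomal transferase and peroxidase, read 11.31, 10.97 and 10.96 in NA16 cells, against 8.34, 8.27 and 8.49 in A16 cells, a 6.53-fold difference (means 11.05 ± 0.12 in NA16 and 8.34 ± 0.10 in A16 cells, log2 change 2.71 ± 0.12, adjusted p 4.43e-05). Gstt1, a theta-class enzyme, read 10.26, 10.17 and 10.32 in NA16 cells, against 8.17, 8.16 and 8.51 in A16 cells, a 3.94-fold difference (means 10.23 ± 0.087 in NA16 and 8.25 ± 0.13 in A16 cells, log2 change 1.98 ± 0.12, adjusted p 8.11e-05). Both stood apart by more than a unit of log2 intensity on every array. Gsta4, which conjugates the lipid peroxidation product hydroxynonenal, read 9.65, 9.34 and 9.40 in NA16 cells, against 7.46, 7.56 and 7.38 in A16 cells (means 9.43 ± 0.12 in NA16 and 7.49 ± 0.097 in A16 cells, log2 change 1.95 ± 0.12, adjusted p 8.85e-05). Mgst3, another microsomal enzyme, read 10.33, 10.13 and 10.25 in NA16 cells, against 8.53, 8.63 and 8.81 in A16 cells (means 10.21 ± 0.11 in NA16 and 8.65 ± 0.027 in A16 cells, log2 change 1.56 ± 0.12, adjusted p 1.37e-04). Neither overlapped between the states. Gstm1, of the mu class, read 10.32, 10.20 and 10.28 in NA16 cells, against 9.24, 9.27 and 9.26 in A16 cells, and rose 1.99-fold (means 10.25 ± 0.070 in NA16 and 9.26 ± 0.016 in A16 cells, log2 change 0.99 ± 0.11, adjusted p 6.26e-04). Within each state its arrays differed far less than the states did. Gsto1 differed by 0.37 (adjusted p 0.0774), by 0.52 without A16 replicate 1 (adjusted p 0.0370) and by 0.21 without A16 replicate 2 (adjusted p 0.317). The difference was 0.22 for Gstp1, of the pi class (adjusted p 0.178), and 0.07 for Gstm2 (adjusted p 0.851). Genes of the mu class are close copies, and how far a probe set of one reads another was not tested.

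**Figure D3:**
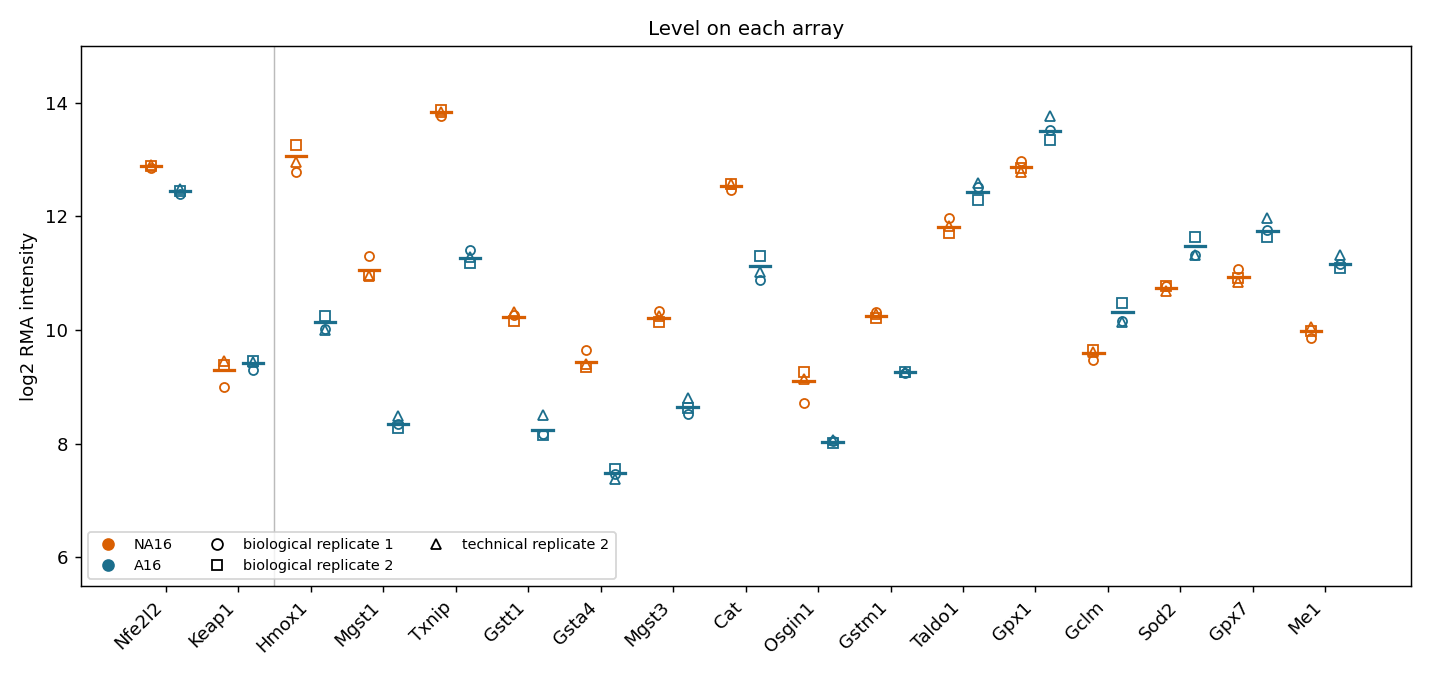
Log2 RMA intensity on each array for Nfe2l2, Keap1 and the 15 antioxidant genes called with a change of at least 1.5-fold, ordered by change, with NA16 (orange) left of A16 (blue); circles, squares and triangles are biological replicate 1, biological replicate 2 and technical replicate 2, and lines are means of n = 2 replicates. In all 15 genes the arrays of the states lie apart, whereas those of Keap1 overlap.

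Of the 21 genes called, 14 were called under each of 15 limma alternatives. These were the higher genes Hmox1, Mgst1, Txnip, Gstt1, Gsta4, Mgst3, Cat, Osgin1 and Gstm1, and the lower genes Me1, Gpx7, Sod2, Gclm and Gpx1. Nfe2l2, Gss, Txnrd1, Txn1, Txn2, Gpx4 and Taldo1 lost the call in at least 1 alternative.

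A further 82 genes of the same pathways were measured out of 90 listed by role, and 26 of them were higher and 11 lower, or 45.1% called, against 21.9% higher and 16.9% lower of all genes. Their median change was 0.12 on the log2 scale, against 0.01 over all genes, and 14 rose and 1 fell by at least 2-fold, against 7.74% and 6.12% of all genes. The count of lower genes among them was 4 without A16 replicate 1, 5 without NA16 replicate 2 and 6 with technical replicate 2 averaged with its closest array. Of 11 partners of KEAP1 and NRF2, 2 were higher and 4 lower, or 54.5% called, against 38.9% of all genes. Maff, a small MAF protein that pairs with NRF2 on DNA, averaged 11.09 ± 0.14 in NA16 cells and 8.87 ± 0.13 in A16 cells (log2 change 2.21 ± 0.13, adjusted p 7.44e-05). Sqstm1, or p62, an autophagy receptor that binds KEAP1, averaged 13.82 ± 0.098 in NA16 cells and 12.64 ± 0.034 in A16 cells (log2 change 1.18 ± 0.12, adjusted p 3.66e-04), and by the mean of its probe sets the change was 0.54. Palb2, a DNA repair protein that can bind KEAP1, fell by 0.74 (adjusted p 0.00221). Cul3 and Rbx1, subunits of the ligase to which KEAP1 brings NRF2, fell by 0.37 (adjusted p 0.0370) and 0.45 (adjusted p 0.0443), and Mafk, another small MAF protein, fell by 0.40 (adjusted p 0.0426). The last 3 were the least stable, with Mafk called in 5, Cul3 in 6 and Rbx1 in 8 of 15 alternatives, and by the mean of its probe sets Rbx1 fell by 0.89. Without NA16 replicate 2 the adjusted p was 0.295 for Cul3, 0.287 for Rbx1 and 0.162 for Mafk.

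Around glutathione itself, Ggct, a cyclotransferase of the gamma-glutamyl cycle, showed the largest rise of the 82 genes, averaging 11.59 ± 0.16 in NA16 cells and 8.33 ± 0.074 in A16 cells (9.54-fold, log2 3.25 ± 0.13, adjusted p 2.52e-05). Selenop, a selenium carrier protein, averaged 12.43 ± 0.0032 in NA16 cells and 9.52 ± 0.11 in A16 cells (log2 change 2.91 ± 0.12, adjusted p 2.65e-05), which was 1.47 by the mean of its probe sets. Arrdc4, an arrestin-domain relative of Txnip, rose as Txnip did, by 1.98 (adjusted p 1.15e-04). The largest fall was that of Mthfd1, a folate enzyme that also yields NADPH, at 10.37 ± 0.12 in NA16 cells and 12.12 ± 0.22 in A16 cells (log2 change -1.75 ± 0.14, adjusted p 1.97e-04). Blvra, the main biliverdin reductase, fell by 0.69 (adjusted p 0.0280) and Glrx5, a mitochondrial glutaredoxin of iron-sulfur cluster assembly, by 0.62 (adjusted p 0.00852). Blvra lost its call when A16 replicate 1 (adjusted p 0.135) or NA16 replicate 2 (adjusted p 0.0649) was left out, as did Glrx5 without NA16 replicate 2 (adjusted p 0.0722). The subunits of the cystine importer, named here after their values were seen, went in opposite directions: Slc3a2, the shared heavy chain, rose by 1.04 (adjusted p 6.66e-04), and Slc7a11, the cystine-specific light chain, fell by 0.54 (adjusted p 0.0124, and 0.0647 without A16 replicate 1 and 0.0878 without NA16 replicate 1). The difference between these genes was not tested. Over all genes of both lists named as glutathione transferases, 11 of 19 were higher and none lower, against 21.9% of all genes higher. This counts 5 of the 8 antioxidant genes given above and 6 of 11 related genes. Of the related ones, Gstm5 and Mgst2 were each called in only 7 of 15 alternatives. Gsta1 was dim (5.77 in NA16 and 5.27 in A16 cells) with overlapping arrays, and was called in 12 of 14 alternatives.

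**Figure D4:**
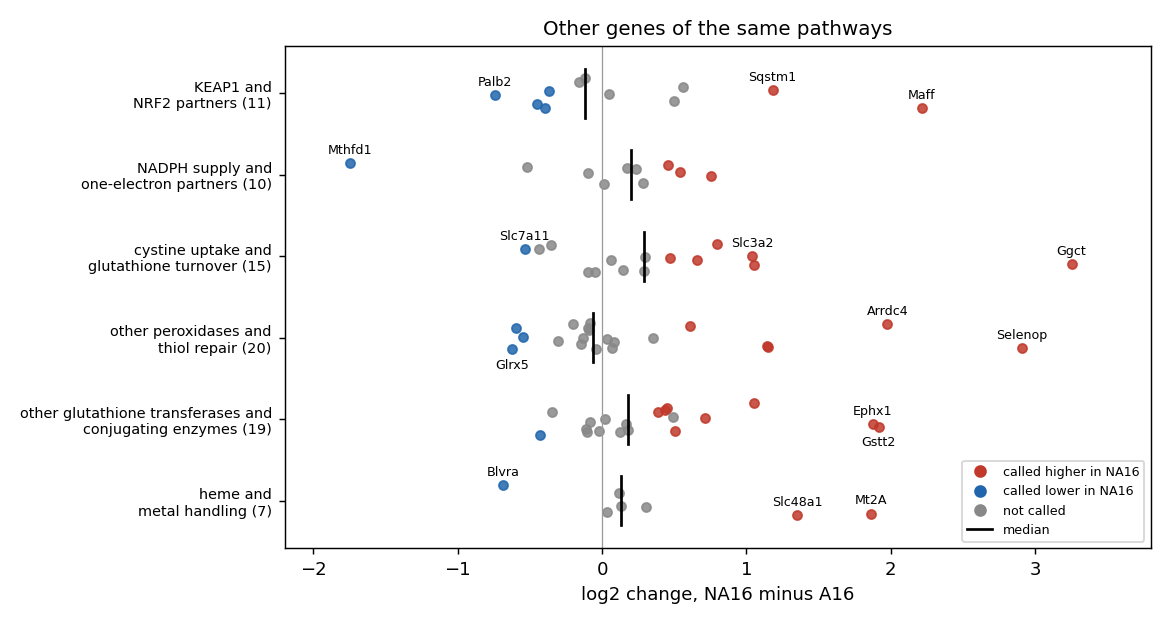
Change of the 82 related genes on the log2 scale, NA16 minus A16, in 6 groups by role with the number measured in parentheses; each point is a gene, red where called higher, blue where called lower, grey otherwise, and black lines are group medians. Group medians lie between -0.12 and 0.29, with Ggct (3.25) and Selenop (2.91) farthest to the right and Mthfd1 (-1.75) farthest to the left.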

How the data were processed

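RNA of F111 NA16 and A16 cells was read on Affymetrix rat arrays. Scans were processed by the authors in the GeneChip Operating Software, and intensities were then normalized in Avadis, once by RMA and once by PLIER, for which no version is stated. The deposited values are normalized intensities on a linear scale, in 12 columns for 6 arrays under both algorithms, with the lowest value near 16, so that changes of dim genes may be understated. The PLIER columns are the same arrays and were not counted as samples. No detection call was used, and the small number of arrays limits the precision.

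Log2 of the RMA intensities was taken. Of 31042 probe sets, 20826 had 1 gene symbol, 20758 of them matched to the RefSeq table of GRCr8 by Entrez identifier, and the probe set with the highest mean stood for its gene. Technical replicate 2 was averaged with biological replicate 1. The contrast of NA16 with A16 was fitted in R 4.3.3 with limma 3.58.1 (lmFit, eBayes), p-values were adjusted over the 14217 genes by Benjamini-Hochberg, and genes with an adjusted p below 0.05 were called (2 residual and 4.78 prior degrees of freedom). Fold changes and SE come from this fit.

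The members and lists were chosen with earlier results of these data known. Every member is named, with values of every array for those called at 1.5-fold or more, for Nfe2l2 and Keap1, and for those whose probe sets or algorithms opposed each other by over 0.3 (Srxn1 and Glrx). Nqo1 is also given by array, chosen after its values were seen. Of the related genes, the 4 largest called rises and falls and the called partners of KEAP1 or NRF2 are named. A list is described by counts, with no test of its own. Alternatives were PLIER, other uses of technical replicate 2, the mean of all probe sets, subtraction of 16, leaving out the dimmest 30% of genes, centring on the median, another variance model, the methods' t-test, a replicate block and leaving out each replicate. Averaging technical replicate 2 with its closest array, and all alternatives for the related genes, were chosen after seeing the data.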

Additional observations from a re-analysis of the deposited data

How the results depend on the processing

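Under the 17 alternatives 0 of the called genes changed sign, so the limits concern calls. Over all genes 3115 were higher and 2409 lower. The methods' t-test with Benjamini-Hochberg adjustment called 13 higher and 7 lower of all genes. Of the 42 antioxidant genes it called 1 higher (Nfe2l2) and 0 lower, and of the 82 related genes 0 and 0. Nfe2l2 passed there with SDs of only 0.0035 in NA16 and 0.0034 in A16 cells, taken after averaging technical replicate 2. Its single arrays read 12.86 to 12.90 in NA16 and 12.39 to 12.49 in A16 cells. Unadjusted, the same t-test called 12 higher and 7 lower of the 42, and 24 and 7 of the 82. Leaving out each replicate in turn gave 9 to 10 higher and 6 to 9 lower antioxidant genes, 21 to 24 higher and 4 to 9 lower related genes, and 2439 to 2631 higher and 2010 to 2078 lower of all genes, where the lone sample of a state is assumed to vary as the others do. Lower related genes numbered 5 with technical replicate 2 left out, 6 with it averaged with its closest array and 7 with 16 subtracted. With a replicate block 14 antioxidant genes were higher and 13 lower, and 3908 and 3111 of all genes; Blvrb, Gclc, Gsr, Gsto1, Srxn1 and Tkt were then called. The labels link samples of the 2 states only by replicate number. Deviations of replicate 1 from the state mean nevertheless correlated between the states (r = 0.557 over 14217 genes, 2 pairs). The main fit did not use this pairing, and what same-numbered samples share was not tested.

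Changes of sign were seen in genes that were not called. By PLIER these were Gpx3 (0.123), Keap1 (0.060), Prdx3 (0.024), Prdx6 (-0.019) and Sod3 (-0.256). With technical replicate 2 left out they were Gstm2 (-0.044), Prdx3 (0.009), Prdx6 (-0.066) and Sod3 (-0.109); averaged with its closest array, Gstm2 (-0.108), Prdx3 (0.036), Prdx6 (-0.063) and Sod3 (-0.038); averaged with biological replicate 2, Sod3 (-0.077). After centring they were Gstm2 (-0.016), Prdx2 (-0.064), Prdx5 (-0.050), Prdx6 (-0.060) and Sod3 (-0.058), with each array as a replicate Prdx2 (-0.006), and by the mean of probe sets Srxn1 (-0.031). Leaving out each replicate, the ranges were -0.190 to 0.010 for Gpx3, -0.179 to 0.321 for Gstm2, -0.079 to 0.124 for Prdx2, -0.143 to 0.108 for Prdx3, -0.049 to 0.121 for Prdx5, -0.276 to 0.330 for Prdx6 and -0.025 to 0.083 for Sod3. The causes were not tested. Without detection calls, dim genes such as Gpx3 and Sod3 have no bound on their signal over background.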

Other observations

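Among the 82 related genes, several not described above rose, and all were chosen here after their values were seen. Ephx1, the microsomal epoxide hydrolase, rose by 1.88 on the log2 scale (adjusted p 1.13e-04 by limma), Gstt2, a theta-class transferase like Gstt1, by 1.92 (adjusted p 1.14e-04, and by 1.04 in the mean of its probe sets), and the mu-class gene Gstm7 by 1.05 (adjusted p 0.00129). Mt2A, a metallothionein that binds zinc and copper, averaged 11.43 ± 0.30 in NA16 cells and 9.57 ± 0.18 in A16 cells (SD, n = 2, adjusted p 2.93e-04). Mt1 differed by 0.03 (adjusted p 0.887), but its probe set was dim, at 6.03 in NA16 and 5.99 in A16 cells. Slc48a1, a transporter that brings heme into the cytosol, rose by 1.35 (adjusted p 0.00220) beside Hmox1. Of the sestrins, stress-induced regulators of nutrient signalling, Sesn2 rose by 1.14 (adjusted p 0.00233), Sesn3 rose by 0.61 (adjusted p 0.00705, but 0.0522 without NA16 replicate 1 and 0.130 by the mean of its probe sets) and Sesn1 differed by 0.35 (adjusted p 0.0642). Txnrd3, a reductase with a fused glutaredoxin domain, rose by 1.15 (adjusted p 7.23e-04, and by 2.05 in the PLIER values), in contrast to Txnrd1, which fell; this difference between genes was not tested. Gpx8 of the endoplasmic reticulum fell by 0.55 (adjusted p 0.0105), as did its relative Gpx7, and did not pass without A16 replicate 1 or NA16 replicate 2, where the largest adjusted p was 0.0695.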
